A study of Mus musculus with 4 samples.

Results

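The rows examined here were the replication-dependent histone genes, taken as every row of the count tables whose symbol reads Hist, a digit and h. The rule found 36 of the 1517 named features: 3 linker histone H1 genes, 13 H2A genes, 13 H2B genes, 6 H3 genes and 1 H4 gene. The libraries came from V6.5 mouse embryonic stem cells at passage 3, a pluripotent line, carrying a short hairpin RNA against GFP (shGFP, the control, 2 libraries) or against NCAPH2 (shNCAPH2, 2 libraries). NCAPH2 belongs to condensin II, which folds chromosomes. All 4 libraries came from cells selected for 5 days in puromycin at 2 µg/mL and grown last without the irradiated feeder fibroblasts, and were made from total RNA depleted of ribosomal RNA. No label ties the libraries of a group to separate cultures, so the tests below show only how far these libraries differ, and that spread may be technical.

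Replication-dependent histone genes supply the proteins that package newly made DNA, and their transcripts build up during S phase. H2A, H2B, H3 and H4 form the core around which DNA is wrapped, and H1 binds the linker DNA between cores. The genes lie in clusters, most lack introns, and most of their messenger RNAs end in a conserved stem-loop in place of a poly(A) tail, so a library made from ribosome-depleted total RNA can hold transcripts that poly(A) selection would lose.

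The GENCODE annotation of GRCm38 (release M21) held 70 genes whose names fit the same rule. The other 34, among them 12 H4, 7 H2A, 6 H2B, 6 H3 and 3 H1 genes, were not analysed here. Among the 36, Hist1h2aj is annotated as an unprocessed pseudogene and Hist1h2al as a processed one, and Hist1h2ba encodes the testis form of H2B. For 34 members the symbol and the place fitted the same annotated gene, while the names Hist2h2aa1 and Hist2h2aa2 were exchanged relative to the annotation and are used here as deposited.

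Summed over all named features, shGFP replicates 1 and 2 held 507891 and 429907 counts, and shNCAPH2 replicates 1 and 2 held 243628 and 272426. Each named feature had a lower summed count under shNCAPH2, with a highest value of 67.8% of the shGFP count, so the tables held only features below that level and a lower count is a property of the tables. Ncaph2 was not analysed here, and the knockdown was not checked on its own transcript. Of 20 embryonic stem cell markers 5 were listed, with Nanog at 2114 and 2345 counts under shGFP against 1530 and 1243 under shNCAPH2. Pou5f1 had 39 and 21 against 12 and 9, and Zfp42 had 59 and 35 against 19 and 19. Sox2 had 36 and 18 against 16 and 17, and Esrrb had 11 and 13 against 0 and 1. Of 25 feeder fibroblast markers 2 were listed, and their summed counts were 63 and 66 under shGFP against 32 and 29 under shNCAPH2. Igfbp7 held nearly all of these, with 58 and 65 against 32 and 29, and Pdgfrb had 5 and 1 against 0 and 0. The part of these fibroblast counts in the histone values was not tested.

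Of the classes, H2A had the largest share of sequence in common with other genes, a median of 84.1% of the 50-base windows of a member. A stretch of 234 bases, coding positions 151 to 384 counted from the A of the start codon, was identical in 7 members (Hist1h2ab, Hist1h2ac, Hist1h2ad, Hist1h2ae, Hist1h2ag, Hist1h2ah and Hist1h2ai). In Hist1h2ab it lies at chr13:23751283-23751516 on the plus strand (GRCm38). It is printed beside the same positions of Hist1h2an, Hist1h2af and Hist2h2aa1, with capitals at the bases that differ from Hist1h2ab. The 7 had first been picked as the H2A members with counts within 10% of those of Hist1h2ab in every library. Stretches common to them were sought afterwards.
Hist1h2ab: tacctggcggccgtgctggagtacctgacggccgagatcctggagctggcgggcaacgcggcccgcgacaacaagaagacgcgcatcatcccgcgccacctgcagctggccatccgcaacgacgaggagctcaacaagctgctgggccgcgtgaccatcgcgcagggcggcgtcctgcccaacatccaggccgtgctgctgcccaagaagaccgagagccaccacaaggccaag
Hist1h2an: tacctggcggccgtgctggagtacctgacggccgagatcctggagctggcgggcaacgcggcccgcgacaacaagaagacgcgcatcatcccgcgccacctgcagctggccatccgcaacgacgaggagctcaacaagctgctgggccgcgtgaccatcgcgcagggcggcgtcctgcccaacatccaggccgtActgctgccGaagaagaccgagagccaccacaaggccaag
Hist1h2af: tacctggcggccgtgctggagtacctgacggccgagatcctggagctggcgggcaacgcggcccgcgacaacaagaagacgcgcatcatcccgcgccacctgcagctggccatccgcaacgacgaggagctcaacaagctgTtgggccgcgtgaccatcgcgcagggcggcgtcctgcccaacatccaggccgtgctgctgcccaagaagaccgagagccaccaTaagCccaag
Hist2h2aa1: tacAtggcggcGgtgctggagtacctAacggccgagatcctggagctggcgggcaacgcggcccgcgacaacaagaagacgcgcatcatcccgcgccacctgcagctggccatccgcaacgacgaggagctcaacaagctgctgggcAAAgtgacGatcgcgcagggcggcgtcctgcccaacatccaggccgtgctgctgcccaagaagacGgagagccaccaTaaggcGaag
Hist1h2an differed at 2 positions, Hist1h2af at 3 and Hist2h2aa1 at 10, and the longest run alike was 194, 141 and 120 bases. The whole stretch was also found in Hist1h2ao and Hist1h2ap, which were not analysed here, and in 0 other annotated genes.

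By the way they were picked, the 7 members with the common stretch had almost the same counts in each library. No other listed member held the whole stretch. Hist1h2ab had 252 and 158 counts under shGFP and 121 and 140 under shNCAPH2. Hist1h2ac had 240 and 160 against 120 and 138, and Hist1h2ai had 254 and 164 against 123 and 141. Any 2 of the 7 differed by less than 10% in every library, although the genes lie in separate parts of chromosome 13. Counts of the other members shown were lower, Hist1h2an having 207 and 122 counts under shGFP against 82 and 107 under shNCAPH2. Hist1h2af had 167 and 108 against 69 and 99, and Hist2h2aa1 had 165 and 112 against 67 and 100. Over the whole coding sequence of 390 bases, Hist1h2ae and Hist1h2af each differed from Hist1h2ab by 10 bases. The counts of Hist1h2ae lay within 3.45% of those of Hist1h2ab, and those of Hist1h2af up to 43.0% apart. Hist1h2an differed by 11 bases with counts up to 32.2% apart. In these cases likeness of counts did not follow the number of differing coding bases. Hist1h2af and Hist2h2aa1 differed by at most 3.57% in each library while sharing only 20.6% of their 50-base windows and 91.3% of coding positions, and they lie on chromosomes 13 and 3. Alike counts thus also occurred in a pair with less sequence in common, and whether its genes share reads was not tested. The sources used here do not give how a read that matched several genes was assigned, so sums over members may hold a read more than once and the counts of a single near copy are uncertain.

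The highest H2A count belonged to the pseudogene. Hist1h2aj had 545 and 369 counts under shGFP against 217 and 325 under shNCAPH2. Per kilobase of annotated exon its mean shGFP count was 1300, against 532 for Hist1h2ai and 519 for Hist1h2ah, the next 2 by that measure. Hist1h2aj shared 86.8% of its 50-base windows with Hist1h2ah, whose counts were 256 and 164 under shGFP and 120 and 141 under shNCAPH2. The other pseudogene, Hist1h2al, which lies alone on chromosome 13 (51202688 to 51203065), had 98 and 56 against 37 and 44. In all 13 H2A members the groups did not overlap, the shNCAPH2 counts being the lower, as in 88.4% of all named features. An annotated microRNA gene model of 138 to 144 bases lies on the opposite strand of each of the 13, and the sources used here do not give whether counting used strand, so reads of both strands cannot be told apart. In Hist1h2ab this model (Gm44484, chr13:23751378-23751515) lies wholly inside the stretch printed above.

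The H2B members ranged more widely, from identical counts to the lowest counts of the core histones. Hist1h2bq and Hist1h2br, whose coding sequences are identical and which shared 97.3% of 50-base windows, both had 300 and 195 counts under shGFP and 150 and 157 under shNCAPH2. Hist1h2bc, which differs from Hist1h2bq by 2 of 378 coding bases and shared 33.8% of windows, had 293 and 181 against 132 and 167. The first 60 coding bases show the spread within the class, with capitals where a base differs from Hist1h2bq.
Hist1h2bq: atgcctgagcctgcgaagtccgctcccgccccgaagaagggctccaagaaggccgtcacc
Hist1h2bc: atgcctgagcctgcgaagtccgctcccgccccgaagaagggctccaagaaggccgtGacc
Hist1h2bb: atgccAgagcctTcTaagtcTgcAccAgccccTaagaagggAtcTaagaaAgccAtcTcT
Hist2h2bb: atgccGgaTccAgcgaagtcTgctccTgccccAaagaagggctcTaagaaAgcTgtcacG
Hist1h2ba: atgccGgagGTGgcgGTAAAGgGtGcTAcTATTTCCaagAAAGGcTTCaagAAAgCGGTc
The members with most changed bases had the lowest counts of the class. Hist1h2bb had 104 and 51 counts under shGFP against 43 and 44 under shNCAPH2. The testis form Hist1h2ba had 67 and 33 against 27 and 29, and Hist2h2bb, the only H2B member on chromosome 3, had 38 and 27 against 14 and 12. Hist2h2bb shared no 50-base window with any other listed H2B member, but 53.6% of its windows occur in another annotated gene, and its exons overlap those of Gm42743 on the same strand. Exons of Hist1h2be, Hist2h2aa2 and Hist2h3c1 also overlap another annotated gene on their own strand, so counts of these 4 are uncertain. Per kilobase of exon, Hist1h2bk (489), Hist1h2bj (446) and Hist1h2bc (322) were the highest by mean shGFP count. Hist1h2bk had 282 and 184 counts under shGFP against 123 and 136 under shNCAPH2, and Hist1h2bj had 246 and 167 against 109 and 118. In all 13 H2B members the groups did not overlap, against the same 88.4% of named features. Exons of Hist2h2bb and of the H3 gene Hist2h3b overlap an exon of Gm20628 on the opposite strand, and the same limit on strand holds for them.

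The H3 members differed strongly between the 2 libraries of each group. Hist1h3b had 245 and 125 counts under shGFP and 86 and 156 under shNCAPH2. Hist1h3c had 165 and 79 against 55 and 101, and Hist2h3b had 189 and 96 against 60 and 109. In these 3 and in Hist1h3e, which had 103 and 58 against 39 and 69, the second shNCAPH2 library lay above the second shGFP library, so the groups overlapped. Hist2h3c2, with 182 and 97 counts under shGFP and 49 and 89 under shNCAPH2, and its near copy Hist2h3c1 (182 and 96, 49 and 89) did not overlap. The first 60 coding bases of 4 members are given with capitals where a base differs from Hist1h3b, since 2 of them lie on chromosome 13 and 2 on chromosome 3.
Hist1h3b: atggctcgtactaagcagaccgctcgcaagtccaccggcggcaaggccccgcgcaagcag
Hist1h3e: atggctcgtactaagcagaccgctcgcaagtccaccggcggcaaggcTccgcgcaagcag
Hist2h3b: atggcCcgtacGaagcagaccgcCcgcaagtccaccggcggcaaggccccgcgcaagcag
Hist2h3c2: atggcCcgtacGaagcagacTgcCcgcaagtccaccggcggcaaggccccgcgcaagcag
Over the whole coding sequence Hist1h3b differed from Hist2h3c2 by 20 of 408 bases and shared 11.9% of 50-base windows, while Hist2h3b differed from Hist2h3c2 by 1 base.

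The count in the first shGFP library was 1.78 to 2.09 times that in the second over the 6 H3 members, against 1.18 for all named counts. In shNCAPH2 the first library held 0.545 to 0.565 of the count of the second, against 0.894 for all named counts. Both ratios lay in a narrow band for members on either chromosome. For H2A the same ratios were 1.47 to 1.75 and 0.663 to 0.872, and for H2B 1.33 to 2.04 and 0.79 to 1.17. Relative to all named counts, every H3 and H2A member was thus higher in the first shGFP library than in the second, and lower in the first shNCAPH2 library than in the second. H3 members together held 0.21% and 0.128% of named counts under shGFP and 0.139% and 0.225% under shNCAPH2, so that the spread within each group was larger than the difference between the groups.

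**Figure D1:**
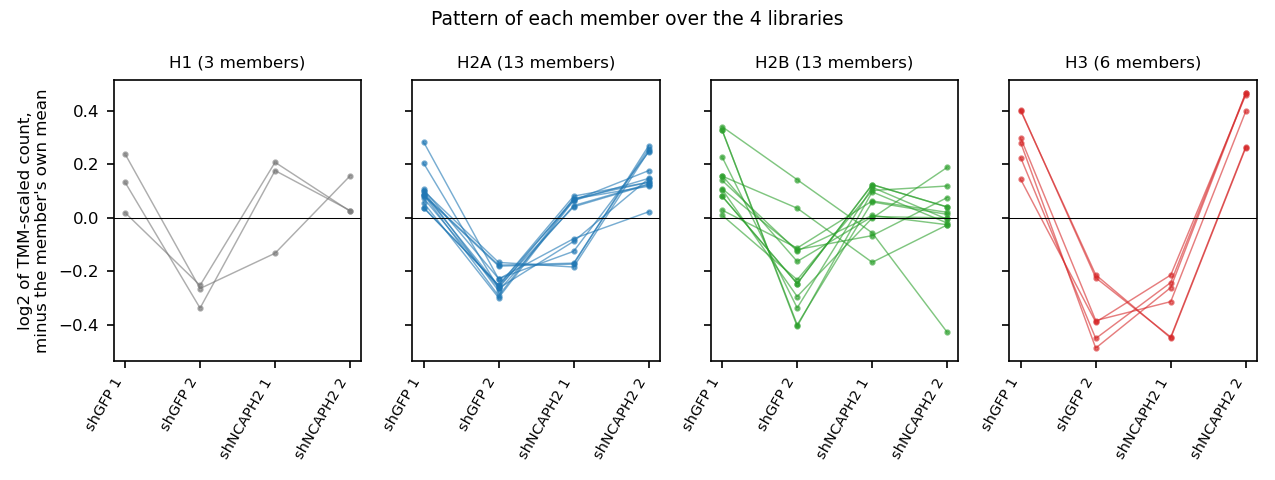
Pattern of each member over the 4 libraries for H1, H2A, H2B and H3 (the 1 H4 member is not drawn). Each line is 1 member, and the y axis is the log2 of its TMM-scaled count minus its own mean over the 4 libraries. The 6 H3 lines are high in shGFP 1 and shNCAPH2 2 and low in the other 2 libraries, and every line is lower in shGFP 2 than in shGFP 1.

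After scaling by TMM, which sets the libraries to a common level over the tested features, the first shGFP library lay above the second in 36 of 36 members and in 52.7% of tested features. The median ratio of the 2 was 1.28 over members and 1.02 over tested features. The second shNCAPH2 library lay above the first in 24 of 36 members, against 53.2% of tested features. Members may share reads and were sequenced in the same libraries, so these are counts over rows and not over independent measurements.

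The single H4 member, Hist1h4f, had 80 and 40 counts under shGFP and 41 and 32 under shNCAPH2, and the groups overlapped by 1 count. It shared no 50-base window with a listed member, and 39.5% of its windows with H4 genes that were not analysed here.

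The 3 linker histone genes were the class with least common sequence. Hist1h1a and Hist1h1b shared no 50-base window with any other gene, and Hist1h1c shared 8.54% of its windows. Hist1h1c had 237 and 160 counts under shGFP and 131 and 128 under shNCAPH2. Hist1h1a had 120 and 69 against 45 and 61, and Hist1h1b had 34 and 20 against 17 and 17. Per kilobase of exon the mean shGFP counts were 147 for Hist1h1a, 127 for Hist1h1c and 36.3 for Hist1h1b. Hist1h1c and Hist1h1a were thus near each other in level per length, and Hist1h1b was the lowest of the 3 in both libraries of each group. The groups did not overlap in any of the 3, against 88.4% of named features.

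**Figure D2:**
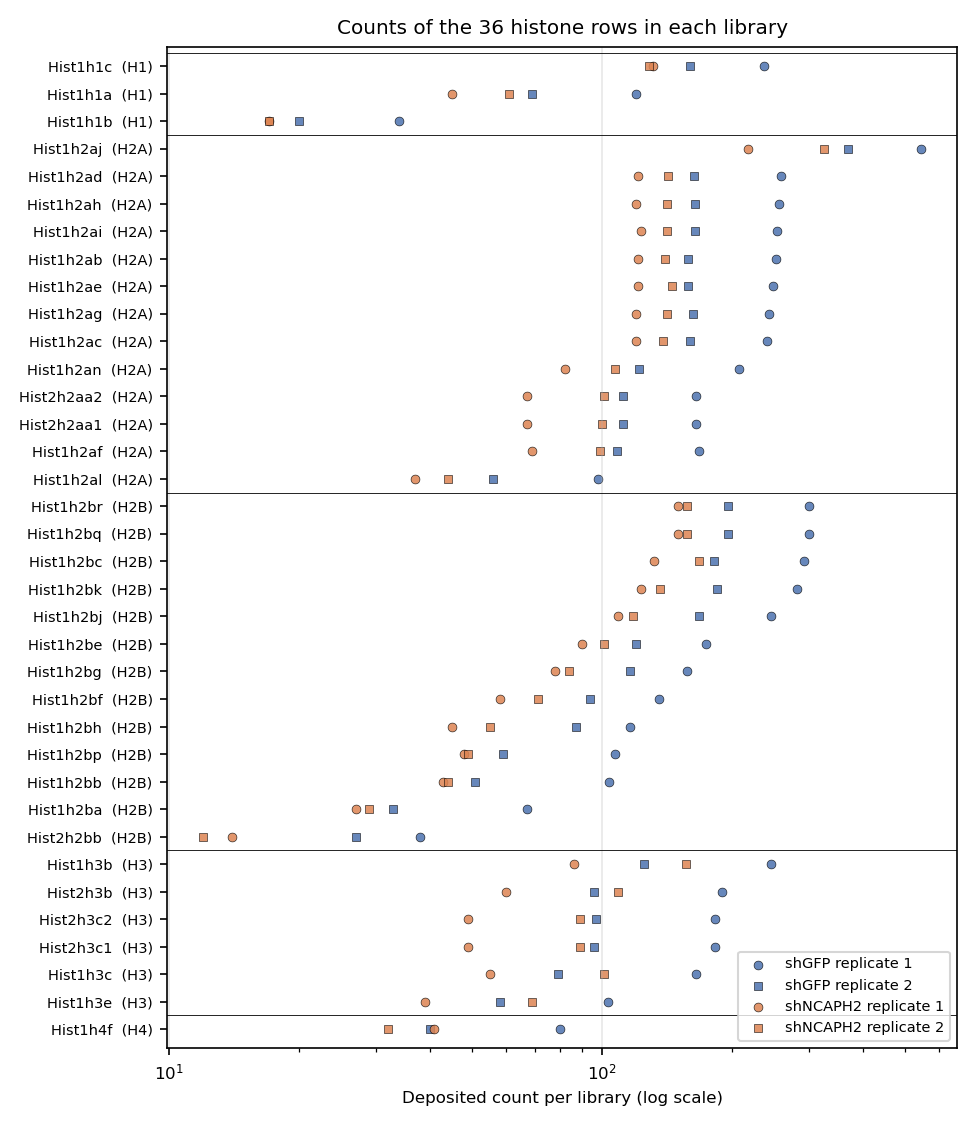
Deposited count of each of the 36 members (rows, grouped by class) on a log axis, with 1 point per library, blue for shGFP and orange for shNCAPH2, circles for replicate 1 and squares for replicate 2. The 7 H2A members with the common stretch form 4 vertical lines of points, and the orange squares of 4 H3 members lie to the right of the blue squares.

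Over the 174 pairs of members within a class, 26 had counts within 10% in all 4 libraries. Of these, 24 were H2A pairs, 1 was the H2B pair Hist1h2bq and Hist1h2br, and 1 was the H3 pair Hist2h3c1 and Hist2h3c2. The 26 shared a median of 64.3% of the 50-base windows of the smaller member (20.6% to 100%), and the other 148 pairs a median of 29.8% (0% to 93.1%). Members are used in many pairs and these medians are descriptions. Counted by near copies, the 36 members made 27 units. These held 1 set of 7 H2A genes and 3 pairs (Hist1h2bq and Hist1h2br, Hist2h2aa1 and Hist2h2aa2, Hist2h3c1 and Hist2h3c2). Members of a set had counts within 10% of each other as well as common windows. Hist2h3b, which shared 79.7% of windows with Hist2h3c1, and Hist1h2aj, which shared 93.1% with Hist1h2ai, were counted apart. The sources used here do not give the read length. With 100-base windows the median share found in another gene was 81.9% for H2A and 44.6% for H2B, and with 50-base windows the H2B median was 59.4%.

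**Figure D3:**
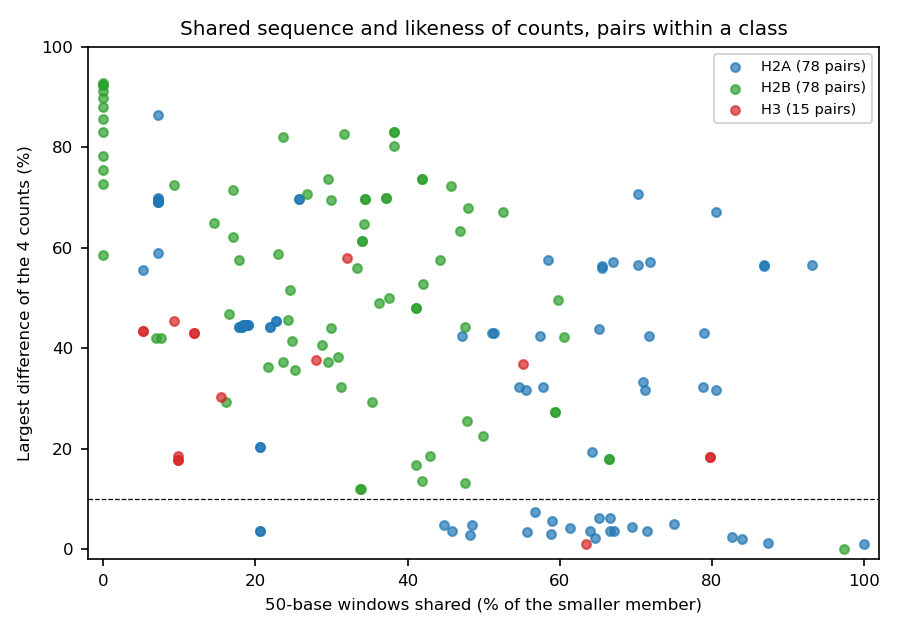
Each point is a pair of H2A, H2B or H3 members, with the percent of 50-base windows they share on the x axis and the largest percent difference among their 4 counts on the y axis. The dashed line marks 10%, and the 26 pairs under it share 20.6% to 100% of windows.

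The shNCAPH2 libraries were then compared with the shGFP libraries. Summed over members, the counts were 6955 and 4357 under shGFP and 3024 and 3795 under shNCAPH2, and shNCAPH2 kept 60.3% of the shGFP sum. The median member kept 60.7%, within a range of 40.0% to 67.1%, against a median of 56.1% for the 896 tested features and 46.7% for all named features. In 31 of 36 members both shNCAPH2 counts were below both shGFP counts, against a background of 88.4% of named features. The 5 exceptions were 4 H3 members and Hist1h4f. In bulk samples fewer cells in S phase and less RNA per cell cannot be told apart.

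By class, the median share kept was 63.0% for H1, 62.1% for H2A, 61.6% for H3, 60.8% for the 1 H4 gene and 56.3% for H2B. Within H2B, Hist2h2bb kept 40.0% (exact binomial 95% interval 24.4% to 63.9%, which here and below covers counting error only) and Hist1h2be kept 65.0% (53.9% to 78.2%). Within H3, Hist1h3e kept 67.1% (52.1% to 86.1%) and Hist2h3c2 49.5% (40.0% to 60.9%). The intervals overlap within each class. As a share of named counts the members held 1.37% and 1.01% under shGFP and 1.24% and 1.39% under shNCAPH2, means of 1.19% ± 0.252 and 1.32% ± 0.107 (SD, n = 2 each). The difference of 0.126 percentage points was smaller than the spread of the shGFP libraries.

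Relative log2 fold changes, in which 0 is about the loss of the typical tested feature, placed 29 of 36 members above 0 and 7 below, against 49.1% of tested features above 0. The median was 0.12 over members and -0.004 over all tested features. All members of the near-copy set of 7 H2A genes were among the 29. Counted with each near-copy set once, over 27 units, the members' median was 0.08. It was also 0.08 over the 21 members without an opposite-strand exon. No listed feature kept over 67.8% of its shGFP count, and the highest relative value was 0.259. The tables thus left little room for a feature to be called higher. None of the 36 passed at a threshold of 0.05 on p-values adjusted by Benjamini-Hochberg over 896 features in edgeR (lowest adjusted p of a member 0.999), against a background of 1.0% called lower and 0.0% called higher. In simulated counts of the same design, 56.4% of features with a true log2 fold change of -1 were called, and 46.9% of those with 1. The absence of a call thus does not show the absence of a change. At an unadjusted p under 0.05 there were 0 members in edgeR, against 6.36% of tested features lower and 0.0% higher, and 0 members in DESeq2. The lowest unadjusted p of a member was 0.193 in edgeR and 0.307 in DESeq2. The value lay within 1 SE of 0 in 30 members.

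The members with the extreme values show how small the differences were beside their errors. The highest values are also bounded by the ceiling of 67.8% on the share kept. In H3, Hist1h3e had a relative log2 fold change of 0.26 ± 0.31 (SE), the highest of all 896 tested features, and Hist2h3c2 had -0.18 ± 0.29. In H2B, Hist1h2be stood at 0.21 ± 0.20 and Hist2h2bb at -0.49 ± 0.35, the lowest of the members. In H2A, Hist1h2ae stood at 0.23 ± 0.19 and the pseudogene Hist1h2al at -0.08 ± 0.29. In H1, Hist1h1c stood at 0.23 ± 0.19 and Hist1h1a at 0.01 ± 0.27, and the H4 gene Hist1h4f stood at 0.14 ± 0.34. Class medians were 0.17 for H1, 0.15 for H2A, 0.14 for H3 and 0.02 for H2B, closer together than the error of a single member.

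On scaled counts, both shNCAPH2 libraries lay above both shGFP libraries in 5 members and below in 2, and 29 overlapped, against 9.49% of tested features above and 17.4% below. Of the 5, Hist1h2ac, Hist1h2ae and Hist1h2ag belong to the H2A set with almost the same counts and are not independent. All 6 H3 members overlapped.

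The excess above 0 rested on the second shGFP library. Without it the members' median was -0.05 and 9 of 36 lay above 0, with a median of -0.04 over all tested features. Without the first shGFP library the median was 0.35, against 0.01 over all tested features, and 34 lay above 0. Without the first shNCAPH2 library it was 0.19, against -0.03, and 33 lay above 0. Without the second shNCAPH2 library it was 0.07, against -0.08, a gap of 0.15, and 20 lay above 0. For H3 the median was -0.17 without the second shGFP library, 0.53 without the first, 0.50 without the first shNCAPH2 library and -0.21 without the second. Treating all libraries as equal in size leaves the counts unscaled. It moved the median of all features to -0.84 and that of the members to -0.72. The gap was 0.12 as before, with 0 members above 0. Under that setting 3 members, Hist1h2bh, Hist1h2bj and Hist2h2bb, all H2B, passed as lower (edgeR, lowest adjusted p = 0.047). The background was 30.6% of 928 features, and that setting counts the loss common to all listed features. Hist1h2bh had 116 and 87 counts with shGFP and 45 and 55 with shNCAPH2.

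Members had higher counts than most features, with a median mean shGFP count of 141.0 against 41.25 for tested and 17.5 for named features. Across tested features the relative log2 fold change was higher at higher mean counts (Spearman rho of 0.305 over 896 features, a description, since features are not independent). The 540 features at or above the lowest member in level had a median of 0.04, and the 244 at or above the median member had 0.07, which lies between the median of all features and that of the members. The part of count level in the members' values was not tested further.

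**Figure D4:**
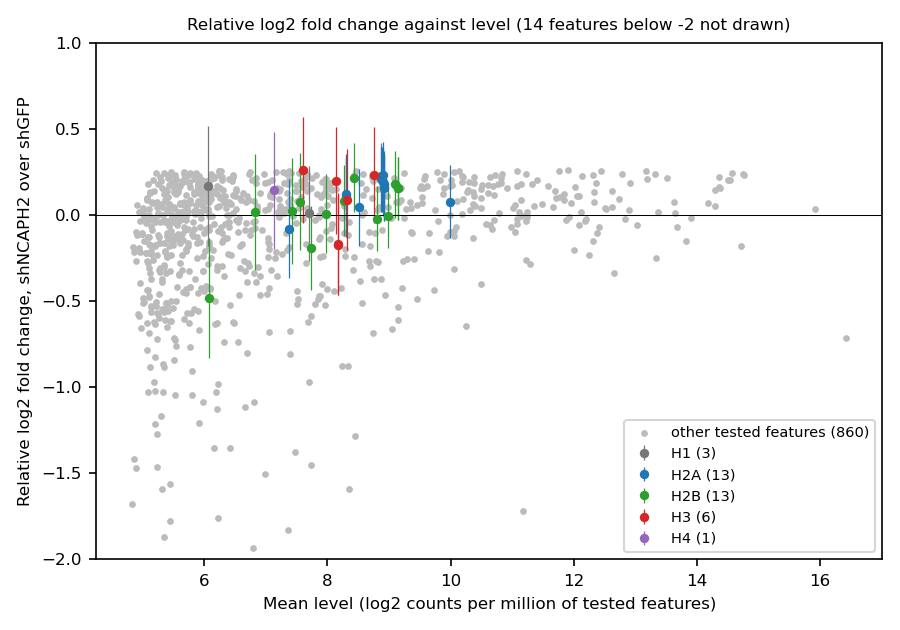
Relative log2 fold change (shNCAPH2 over shGFP, edgeR) of each tested feature against its mean level in log2 CPM, with histone members in colour by class and bars of 1 SE, and 14 features below -2 not drawn. Of the 36 members 29 lie above 0, and 30 of the 36 bars reach 0.

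The members fell into 4 clusters when genes over 1000000 bases apart were separated. On chromosome 3 (96238108 to 96279001) 6 members kept 55.2% of their summed shGFP count, with a median relative log2 fold change of -0.04. On chromosome 13, 11 members at 21716422 to 22043676 kept 60.1% (0.15) and 18 members at 23533906 to 23934156 kept 62.2% (0.17). Hist1h2al stood alone and kept 52.6%. The chromosome 3 cluster holds 3 of the 6 H3 members, Hist2h2bb and the pair Hist2h2aa1 and Hist2h2aa2, so cluster and class were compared together. Within H3 the 3 members on chromosome 3 kept 52.9% of their sum and the 3 on chromosome 13 kept 65.3%. Within H2A the 2 on chromosome 3 kept 60.5%, against 61.0% and 63.6% for the 5 in each large chromosome 13 cluster. With 2 libraries a group and reads that near copies may share, these cluster values were not tested against each other.

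In 6 places an H2A gene starts next to an H2B gene that runs the other way, the gap being 242 to 301 bases. The H2A member kept more than its H2B neighbour in 5 of the pairs. The H2A members of these 5 all belong to the set of 7 with almost the same counts. The 5 pairs are thus not independent, and the differences were not tested. The exception was Hist1h2an (57.4%), which is outside that set, with Hist1h2bp (58.4%). Hist1h2ag kept 64.4% (54.9% to 75.5%) and Hist1h2bj 55.0% (46.5% to 64.8%), the widest gap. Hist1h2ac kept 64.5% and Hist1h2bc 63.1%, the narrowest of the 5. The sequence between the starts of these last 2 pairs is printed on the plus strand from the RefSeq promoter table (GRCm38.p6), because 1 stretch serves both genes of a pair. The starts are those of RefSeq, except that of Hist1h2bc, which is the deposited one. Capitals mark the TATA box letters TATAAA, the CCAAT box letters CCAAT and the octamer ATTTGCAT on either strand.
Hist1h2ag and Hist1h2bj, chr13:22042950-22043197: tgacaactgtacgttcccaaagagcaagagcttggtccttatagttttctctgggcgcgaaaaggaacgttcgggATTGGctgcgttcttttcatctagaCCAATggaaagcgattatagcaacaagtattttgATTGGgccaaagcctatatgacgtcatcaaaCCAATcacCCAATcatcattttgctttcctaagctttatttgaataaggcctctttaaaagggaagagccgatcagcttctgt
Hist1h2ac and Hist1h2bc, chr13:23683960-23684198: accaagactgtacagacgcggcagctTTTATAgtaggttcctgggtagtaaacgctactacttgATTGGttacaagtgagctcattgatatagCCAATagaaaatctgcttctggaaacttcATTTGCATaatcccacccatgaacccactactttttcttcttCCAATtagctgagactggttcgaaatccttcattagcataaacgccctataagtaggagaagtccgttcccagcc
The first holds CCAAT 5 times and neither of the other motifs, and the second holds CCAAT 3 times, TATAAA 1 time and ATTTGCAT 1 time. These letters are descriptions of the windows and say nothing of which factor binds.

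RefSeq promoter windows (300 bases around the start, GRCm38.p6) matched 31 members, and Hist2h2aa1, Hist2h2aa2, Hist1h2aj, Hist1h2bc and Hist1h2al had none in the table. CCAAT was present on either strand in 30 of the 31 (96.8%), all but Hist1h4f, against 37.4% of 32851 RefSeq promoters. TATAAA was present in 16 (51.6%, against 13.6%), on either strand and at any place in the window. Some of these matches are thus not placed as a TATA box of the member. In Hist1h4f the match opens the window, far upstream of the start, and in Hist1h2bk it lies on the opposite strand. ATTTGCAT was present in 9 (29.0%, against 1.74%), in 4 of 9 H2A and 5 of 12 H2B promoters and in 0 of 10 others. Promoters of a divergent pair overlap and are not independent.

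The stem-loop at the end of histone messenger RNAs was searched for on the sense strand of annotated transcripts as a left arm GGNNCT, a loop TNTN and a right arm AGNNCC in a row, where N is any base. It was present in 22 of 36 members (61.1%), in 24 of the 34 unlisted genes (70.6%) and in 155 of 55380 other genes (0.28%). It took 3 forms, printed with the arms of the stem in capitals and the loop in lower case.
17 members, among them Hist1h1c, Hist1h2ac and Hist1h3b: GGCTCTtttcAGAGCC
Hist1h2bb, Hist1h2bk, Hist1h3c and Hist1h3e: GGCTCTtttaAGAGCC
Hist1h4f: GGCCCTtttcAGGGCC
The other 14 members had no match in their annotated transcripts. Some of these transcripts hold little beyond the coding sequence, as in Hist1h2ai (393 exon bases, 390 coding) and Hist1h2ba (384 and 381). The search could not find a stem-loop past their annotated end, so 61.1% may be too low. No difference in counts was read from this.

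Of the genes that act with these histones, given from 4 lists, 0 were called, against 1.0% of tested features called lower and 0.0% higher. Of 21 genes for processing and transcribing histone pre-mRNA 1 was listed, Srrt, which encodes a cap-binding partner, with 30 and 24 counts under shGFP and 17 and 16 under shNCAPH2. Of 21 histone chaperones and import factors 7 were listed and 4 tested. Nasp, a chaperone of H3 and H4 and of H1, had 6754 and 7220 counts against 4118 and 3712 and kept 56.0%. Its replicates stood in the other order from those of H3 in both groups. Supt16, a subunit of the FACT chaperone of H2A and H2B, had 63 and 26 against 23 and 29, and Npm1, a nucleolar chaperone, had 386 and 216 against 187 and 154. Of 34 S phase and DNA replication genes 7 were listed and 5 tested, with a median relative log2 fold change of 0.11. Ccne2, cyclin E2, had 225 and 210 counts against 131 and 134 and kept 60.9%. Mcm6, a subunit of the replicative helicase, had 16 and 10 against 8 and 3, and the replication factor Mcm10 had 21 and 27 against 17 and 14. Ccne2 thus differed little between the 2 shGFP libraries, in which every histone member stood higher in the first. Of 13 replication-independent histone variants 2 were listed. H2afx, a variant of H2A whose messenger can also end in the histone stem-loop, had 137 and 81 counts under shGFP and 54 and 82 under shNCAPH2 and kept 62.4%, and its groups overlapped. H3f3b, an H3.3 gene, had 14 and 12 against 7 and 5.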

How the data were processed

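Total RNA of 4 libraries was measured by RNA-seq. For each library the authors deposited a table of whole-number counts with symbol, start, end and strand. TopHat2 2.0.10, edgeR and mm9 are named, without their role, in the submitters' processing notes. Positions, with the chromosome as deposited, followed GRCm38, and all 36 members were matched by place to GENCODE M21, which gave the exon length. Between 22.2% and 23.3% of each library's counts lay in rows with no symbol, which were left out. Counts were tested in R 4.3.3 with edgeR 4.0.16 (quasi-likelihood test, TMM, filterByExpr defaults, group only, 2 residual degrees of freedom, Benjamini-Hochberg, threshold 0.05), after a check on simulated data. All 36 members passed the filter. SE is the absolute log2 fold change over the square root of F. Genes compared in sequence used GENCODE transcripts. The tables' sums are not library depths, which were not used here.

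Named in each class were the 3 members with the highest shGFP count per kilobase, the members with the lowest and highest fold change and any with identical counts, and in each other list up to 3 genes with the smallest p. All listed embryonic stem cell markers are given. Further members are named for their sequence or counts after their values were seen. The members and lists were chosen with earlier results of these data known. Alternatives were RLE factors, TMM without the histone rows, equal library sizes, other filters, DESeq2 1.42.0, a replicate block, leaving out each library and, added after seeing the data, counting near copies once.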

Additional observations from a re-analysis of the deposited data

How the results depend on the processing

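The count of 9 features called was 16 with RLE size factors, 284 with equal library sizes, 21 without a filter, 4 with a replicate block and 12 to 18 without 1 library. The number of histone members called was 0, and 3 with equal library sizes, where the members' median moved to -0.72 and that of all tested features to -0.84. The replicate block gave a members' median of 0.11 and changed no member's call, and same-numbered libraries did not deviate together (r of -0.06 over 896 features). Equal library sizes also turned the sign of Hist1h1a (-0.83), Hist1h1c (-0.62), Hist1h2ae (-0.61), Hist1h2be (-0.62), Hist1h3e (-0.57) and Hist1h4f (-0.72), which follows from the shift of all features. Hist1h1a was -0.004 with a stricter filter and Hist1h2al 0.0345 without one; the cause was not tested. Without 1 library the median kept ran from 49.9% to 79.6%. Fold changes then ran from -0.22 to 0.30 for Hist1h1a, -0.31 to 0.22 for Hist1h2al, -0.065 to 0.59 for Hist1h3e, -0.16 to 0.56 for Hist1h4f and -0.52 to 0.18 for Hist2h3c2; the cause was not tested. The low counts of Hist1h1b and Hist2h2bb limit their precision most.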
